A study of Mus musculus with 29 samples.

Results

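Sorted cells, named pyramidal neurons by the study, came from the amygdala of Thy1-YFP reporter mice that the labels call Sus-T or Res-T and describe as without trauma, and their RNA was compared gene by gene. The comparison holds 5 of the 26 libraries with deposited values in the series (29 samples were described): 2 Sus-T libraries, replicates 1 and 3, and 3 Res-T libraries, replicates 1 to 3, chosen by their labels. A further Sus-T sample, replicate 2, was marked by the submitters as left out of their differential expression and is not analysed here. Each of the 9872 genes in the deposited table was compared, as Sus-T minus Res-T. The other amygdala groups, 4 Sus-T with trauma and 4 Res-T with trauma libraries, entered the same fit and show the same genes in other libraries. Every mouse in these groups carried the B6.Cg-Tg(Thy1-YFP)HJrs/J transgene, in which the Thy1 promoter drives a fluorescent protein in a subset of projection neurons, so the sorted cells stand for the reporter-positive cells and not for the whole amygdala. The labels give no age or sex, do not spell out Sus-T and Res-T, and do not tie libraries to animals; the design text speaks of 9 mice for the amygdala, which has 13 libraries here. The p-values therefore measure the spread between these libraries, which may be partly technical.

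The amygdala assigns emotional value to stimuli, and its pyramidal neurons are excitatory, glutamate-releasing cells whose synapses strengthen and weaken during fear learning. At such synapses calcium entering through glutamate receptors activates CaMKII, a kinase anchored with the receptors by scaffold proteins of the postsynaptic density, while the presynaptic side holds vesicles and the active zone that docks them. Oligodendrocytes wrap the axons of these neurons in myelin, a lipid-rich sheath made of a few very abundant proteins, and they are a common companion of neurons in dissociated brain tissue.

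Library totals of the deposited values, in arbitrary units, were 3267967 and 3440617 in Sus-T and 3753466, 3974274 and 3795963 in Res-T. Among the low values of the Res-T libraries, steps of whole reads could still be seen once 1 was subtracted. Of the 2000 lowest values 49.3%, 32.6% and 31.7% lay within 0.1 of a whole read. A fixed step gives 20% by chance. The step was fitted to each library, which can raise that share, so the other libraries are the reference. No other library of the series showed such steps: the Sus-T libraries stood at 22% and 22.2%. The 23 libraries that include them, all those with trauma and all prefrontal ones, stood at 20.8% to 25%. The smallest value was 1.57 and 1.43 in Sus-T and 1.97 to 1.99 in Res-T, and over all 10 other amygdala libraries it was 1.35 to 1.7. Taken as log2(value - 1) and centred by gene, the 13 libraries lacked 1 dimension. In it the Res-T libraries without trauma had weights of at most 0.0002 and the 10 others weights of 0.0074 to 0.2731. The Res-T libraries of this comparison may thus have been handled differently before deposit, which the sources used here do not state. Such a difference and a difference between Sus-T and Res-T cannot be told apart in any value without trauma below. On the first principal component of the 13 libraries, which held 31.8% of the variance, Sus-T stood at 0.447 and 0.378 and Res-T at -0.438, -0.422 and -0.414. The 8 libraries with trauma lay between them, from -0.082 to 0.185. Of 17 listed markers of pyramidal neurons 6 had a row, together 0.151% and 0.167% of the Sus-T libraries and 0.029%, 0.0395% and 0.0303% of the Res-T libraries, and 5 of the 6 were higher in Sus-T (median log2 change 2.70). The defining markers Slc17a7, Neurod2, Neurod6 and Tbr1, among others, are not analysed here. Transcripts of oligodendrocytes were present in every library: 19 oligodendrocyte markers together made up 2.1% and 3.14% of the Sus-T libraries and 6.91%, 7.94% and 6.8% of the Res-T libraries. Fewer cells of a type and less RNA per cell cannot be told apart in such pooled material.

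**Figure D1:**
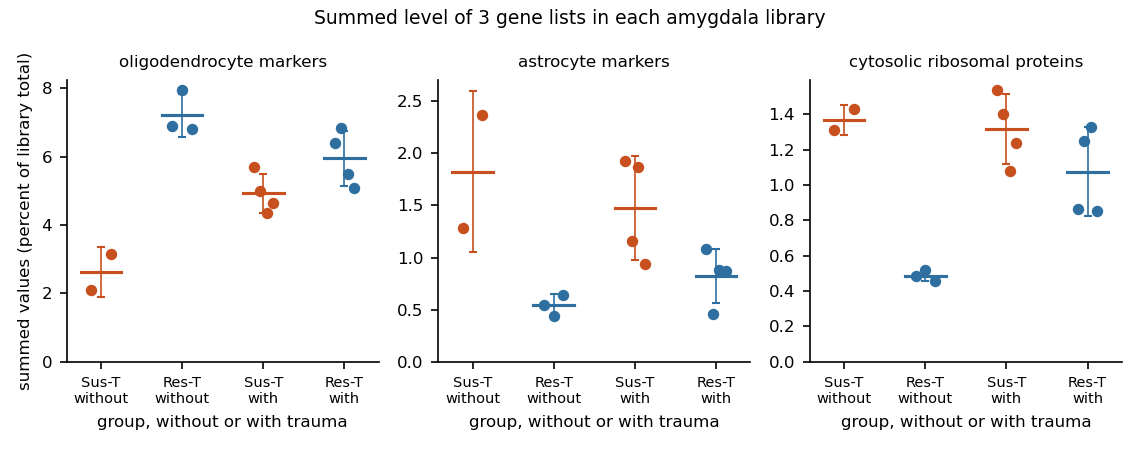
Summed deposited values of 3 gene lists as percent of each amygdala library's total (vertical axis), by group (horizontal axis); points are libraries, horizontal bars are means and whiskers are SD. Without trauma, oligodendrocyte markers stand at 2.1% and 3.14% in Sus-T, below the 6.8% to 7.94% of Res-T, and cytosolic ribosomal protein genes at 1.31% and 1.43% in Sus-T, above the 0.457% to 0.519% of Res-T.

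The groups differed in 2706 genes, 27.4% of those tested, at an adjusted p of 0.05 in limma. In Sus-T 1223 genes (12.4%) were higher and 1483 (15%) were lower, while the median log2 change of all genes was -0.03. These shares of all genes are the background for the list counts below. Changes of at least 2-fold numbered 921 rises and 1043 falls, and 35 rises and 51 falls reached 8-fold. Every Sus-T library lay beyond every Res-T library in 5819 genes (58.9%), above in 27.7% and below in 31.3% of those tested, among them 2705 of the 2706 called. Of the 7166 genes that were not called, 4511 had a 95% interval that reached a 2-fold change, so a change of that size is not excluded for these. An exact permutation test on 1 gene could not go below p = 0.1 one-sided in this design. A fit without 1 Sus-T library leaves 1 library in that group and called fewer of all genes in both directions. List counts below from such fits are to be read against that general drop. Replicate 1 of Sus-T weighed most on the total and on the falls, and replicate 3 of Sus-T weighed most on the rises.

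Oligodendrocyte transcripts differed between the groups alongside every gene group described below. Their mean log2 level was 10.42 and 11.2 in Sus-T and 12.71, 12.89 and 12.56 in Res-T, and the libraries with trauma lay from 11.72 to 12.46. When this mean was added to the model as a covariate, 44 genes passed, 35 higher and 9 lower in Sus-T, of which 38 were among the 2706. The direction of change was kept in 2311 of the 2706 genes. Of the 19 markers in this mean 17 were themselves called, and its values did not overlap between the groups. A covariate so close to the group widens the errors, so calls could be lost even where changes stayed as large. Counts with the covariate, here and below, thus cannot show how much oligodendrocyte transcripts account for, which was not tested.

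Several of the strongest changes were in genes outside the classical synaptic and myelin sets. Sec14l5, which encodes a protein with a Sec14-type lipid-binding domain, had 22.2 and 191.2 in Sus-T and 2005, 1687 and 1202 in Res-T, a fall of 23.9-fold (log2 -4.58 ± 0.75 SE, adjusted p = 0.000606). Sgk2, a kinase of the serum- and glucocorticoid-regulated family, had 4.39 and 29.6 in Sus-T and 163.5, 213.4 and 203.2 in Res-T (15.0-fold lower, adjusted p = 0.000286). In both genes the Sus-T libraries differed several-fold from each other, yet lay far below each Res-T library. With the oligodendrocyte covariate the log2 change was 1.34 in Sec14l5 and 0.4 in Sgk2, and neither passed. Whether these falls are separate from the oligodendrocyte difference was not tested. Dok6, a docking adaptor of receptor tyrosine kinases, was high in both Sus-T libraries, at 506.2 and 1266, against 39.2, 39.4 and 44.4 in Res-T (19.1-fold, adjusted p = 0.0001). Fbxl16, an F-box protein enriched in brain, stood at 717.7 and 833.6 in Sus-T and at 59.5, 71.9 and 47.3 in Res-T (13-fold, adjusted p = 1.5e-05).

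**Figure D2:**
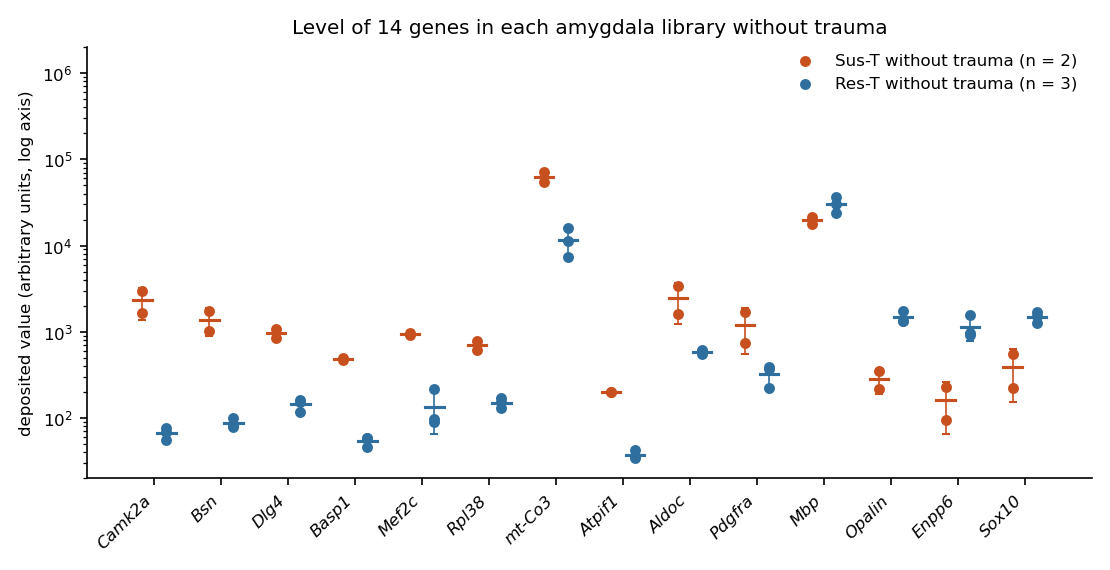
Deposited value (arbitrary units, logarithmic axis) of 14 genes in the 2 Sus-T and 3 Res-T amygdala libraries without trauma; points are libraries, bars are means and whiskers are SD. The groups do not overlap in any of these genes: Camk2a to Pdgfra are higher in Sus-T, and Mbp to Sox10 are lower, Mbp with the smallest gap (17760 and 21500 in Sus-T against 23940 to 36590 in Res-T).

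Genes of calcium signalling at the synapse were higher in Sus-T, where 14 of 22 measured genes passed upward and no gene downward, at a median log2 change of 1.43. Camk2a, the alpha subunit of the CaMKII kinase, had 1656 and 2965 in Sus-T and 55.4, 77.3 and 68.4 in Res-T (32.9-fold, log2 5.04 ± 0.58 SE, adjusted p = 4.26e-05). The lowest Sus-T library thus exceeded the highest Res-T library many times over. Camk2n1, an endogenous inhibitor of the same kinase, rose as well, with 1654 and 1353 in Sus-T and 118.5, 212.3 and 181.1 in Res-T (8.97-fold, adjusted p = 0.00068). Ncs1, a neuronal calcium sensor, rose 9.74-fold. Without Sus-T replicate 1 the count of rises in this list was 8, and with the oligodendrocyte covariate it was 1.

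Scaffold genes of the postsynaptic density showed 20 rises and 1 fall among 34 measured, with a median log2 change of 1.44. Ddn, which encodes dendrin of dendrites and the postsynaptic density, had 479.7 and 1710 in Sus-T and 26.2, 28.4 and 21.5 in Res-T (34.6-fold, log2 5.11 ± 1.05 SE, adjusted p = 0.00283). The gap between groups was wide, although the Sus-T libraries were far apart. Psd, an exchange factor for ARF6 in dendrites, rose 14.3-fold, Shank2, a master scaffold, 12.1-fold, and Dlg4, which encodes PSD-95, 6.65-fold, all with adjusted p of at most 0.000156. With the oligodendrocyte covariate 4 of the 34 rose and the median was 1.67.

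Presynaptic genes were divided, with 18 rises and 3 falls among 33 measured and a median log2 change of 0.83. Bsn, a giant scaffold of the active zone, had 1033 and 1729 in Sus-T and 83.5, 99.8 and 78.0 in Res-T (15.3-fold, log2 3.93 ± 0.39 SE). Snap91, a clathrin adaptor that retrieves vesicle membrane, rose 3.57-fold. Syt11, a synaptotagmin that does not act as a calcium sensor for release, went the other way: it had 2193 and 2942 in Sus-T and 4800, 5977 and 4466 in Res-T (1.98-fold lower, adjusted p = 0.00107). With the oligodendrocyte covariate the log2 change of Syt11 was 0.02 and 1 member of the list passed.

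Among glutamate receptor subunits 9 of 18 rose and 2 fell (6 and 5 rises without Sus-T replicates 1 and 3). Grm5, the metabotropic receptor mGluR5, had 273.6 and 335.3 in Sus-T and 78.3, 80.9 and 56.8 in Res-T (4.21-fold, adjusted p = 0.000106). Grin2b, a subunit of NMDA receptors, rose 4.72-fold (adjusted p = 0.00643), a call that was lost without Sus-T replicate 1. Gria4, an AMPA receptor subunit found in interneurons and in cells of the oligodendrocyte lineage among others, was lower, at 209.7 and 215.8 in Sus-T and 338.9, 563.6 and 469.5 in Res-T (2.10-fold lower, adjusted p = 0.00359). In 8 GABA and glycine receptor genes 3 rose and 1 fell, against 2 and 1 rises and no fall without Sus-T replicates 1 and 3. None of the receptor genes passed with the oligodendrocyte covariate.

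Among channel genes, the sodium, calcium and HCN families that govern firing and calcium entry showed 11 rises and no fall among 17. Without replicate 1 or replicate 3 of Sus-T fewer of them rose, as did fewer of all genes. Potassium channel genes, which repolarise the membrane, showed 10 rises and 4 falls among 24 (2 falls without Sus-T replicate 1). Kcna1, which sits beside the nodes of myelinated axons, had 559.4 and 359 in Sus-T and 1288, 2062 and 1315 in Res-T (3.38-fold lower, adjusted p = 0.000405). In G protein, RGS and cAMP genes 13 of 43 rose and 3 fell, with 6 rises without Sus-T replicate 3. Gng3, a G protein gamma subunit of neurons, rose 6.78-fold and Gnas, the stimulatory alpha subunit, 2.79-fold, while Rgs3, which ends G protein signals, fell 3.08-fold and Pde4b, which degrades cAMP, fell 2.68-fold. For Pde4b the libraries held 886.6 and 1582 in Sus-T and 2995, 3319 and 3225 in Res-T.

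Of 40 synaptic adhesion genes 20 rose and 3 fell, with 6 rises without Sus-T replicate 3. Adgrl1, the adhesion receptor latrophilin 1, rose 3.04-fold (865.3 and 1233 in Sus-T, 399.5, 268.7 and 363.9 in Res-T). Ptprd, a receptor phosphatase that organises presynaptic terminals, was 3.70-fold lower, with 3236 and 3781 in Sus-T and 11660, 13080 and 14240 in Res-T (adjusted p = 1.06e-05). Axon guidance genes split evenly, with 9 rises and 9 falls among 37 and a median of 0.14. That is 24.3% each way, against 12.4% and 15% of all genes. Unc5c, a netrin receptor, had 244.7 and 416.2 in Sus-T and 1228, 1564 and 1323 in Res-T (4.27-fold lower, adjusted p = 1.63e-05), and Plxnb3, a semaphorin receptor of oligodendrocytes, was 5.96-fold lower. Plxna4, another semaphorin receptor, went the other way, with 300.7 and 414.8 in Sus-T and 83.0, 60.6 and 64.3 in Res-T (5.09-fold, adjusted p = 4.69e-05).

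Growth cone genes showed 10 rises and 4 falls among 22 (1 and 2 falls without Sus-T replicates 1 and 3). Basp1, a membrane protein of growth cones and nerve endings, had the smallest p of the rises: 490.8 and 469.4 in Sus-T and 59.5, 58.8 and 46.4 in Res-T (8.66-fold, log2 3.11 ± 0.23 SE, adjusted p = 7.89e-07). Its libraries agreed closely within each group. Evl, an actin elongation factor, rose 6.47-fold, and Nav3, a microtubule-binding navigator, 7.07-fold, whereas Stmn4, a stathmin that destabilises microtubules, was 2.49-fold lower (663.9 and 604.2 in Sus-T, 1575, 1780 and 1410 in Res-T). Tubulins differed in direction within one family: Tubb5 had 992.1 and 1034 in Sus-T and 325.9, 335.3 and 311.7 in Res-T, and Tuba4a rose 6.60-fold. Tubb4a, a beta tubulin abundant in oligodendrocytes, had 3867 and 4658 in Sus-T and 13010, 14640 and 11540 in Res-T (3.06-fold lower, adjusted p = 5.42e-05). Tubulin genes resemble each other closely, so their shares of reads are less certain than those of other genes. The kinesin Kif13b was 3.27-fold lower and Map7, a microtubule protein that recruits kinesin, 3.8-fold lower. Across 43 microtubule genes 12 rose and 6 fell, or 27.9% and 14%, against 12.4% and 15% of all genes. Fewer of them rose without Sus-T replicate 3.

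Neuronal transcription factors showed 16 rises and 3 falls among 37. Mef2c, which acts in activity-dependent synapse control, had 963.3 and 912.6 in Sus-T and 90.2, 98.8 and 216.2 in Res-T (7.48-fold, log2 2.90 ± 0.31 SE, adjusted p = 1.5e-05). Camta2, a calmodulin-binding transcription activator, rose 2.97-fold. Zeb2, a repressor needed for oligodendrocyte and neuron maturation, was lower, with 3548 and 3235 in Sus-T and 6728, 7591 and 8092 in Res-T (2.2-fold lower, adjusted p = 0.00119). Activity-induced genes showed 5 rises and no fall among 11. Without replicate 1 or replicate 3 of Sus-T their share of rises was near that of all genes. Arc, the best known of them, did not pass, with 1058 and 739.2 in Sus-T and 952.4, 648.4 and 417.2 in Res-T (log2 0.47 ± 0.30 SE, adjusted p = 0.267), and its groups overlapped. Fosl2, a partner of Jun, rose 3.26-fold (adjusted p = 0.0109), but not without Sus-T replicate 3 or Res-T replicate 2.

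Genes of glucocorticoid and stress signalling showed 2 rises and 2 falls among 16, with a median of 0.01. That is 12.5% each way, near the 12.4% and 15% of all genes. Fewer of them passed without Sus-T replicate 1. Nr3c1, the glucocorticoid receptor, had 785.2 and 943.3 in Sus-T and 1211, 1393 and 1402 in Res-T (1.55-fold lower, log2 -0.63 ± 0.19 SE, adjusted p = 0.0213). That call was lost without Sus-T replicate 1 and without Res-T replicate 2 or 3, under quantile normalization and with the replicate number as a block. Fkbp5, a co-chaperone of that receptor and one of its target genes, spread too widely to pass: 134.8 and 216.5 in Sus-T and 79.6, 196.5 and 19.4 in Res-T (adjusted p = 0.129), and it passed without Res-T replicate 2. Of 4 measured genes for neuropeptides and their processing 2 rose, among them Cpe, the carboxypeptidase that trims precursors, with 4447 and 6947 in Sus-T and 1215, 864.7 and 985.1 in Res-T (5.49-fold, adjusted p = 0.00015). Without Sus-T replicate 3 there was 1 rise. Endocannabinoid genes showed 5 rises and no fall among 13, and Dagla, the enzyme that makes 2-AG at the postsynaptic membrane, rose 4.05-fold.

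Growth factor signalling was divided, with 10 rises and 12 falls among 45, or 22.2% and 26.7%, against 12.4% and 15% of all genes. Fewer of them passed in either direction without replicate 1 or replicate 3 of Sus-T. Fgfr2, a fibroblast growth factor receptor, had 565.7 and 967.6 in Sus-T and 2695, 2562 and 2853 in Res-T (3.65-fold lower, adjusted p = 4.56e-05), and Erbb3, a neuregulin receptor, was 3.85-fold lower. Both receptors are found on oligodendrocytes. Fgf12, which binds sodium channels inside the neuron, rose 5.15-fold. MAP kinase cascade genes showed 12 rises and 6 falls among 55, or 21.8% and 10.9%, against 12.4% and 15% of all genes. Fewer of them passed without Sus-T replicate 1.

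**Figure D3:**
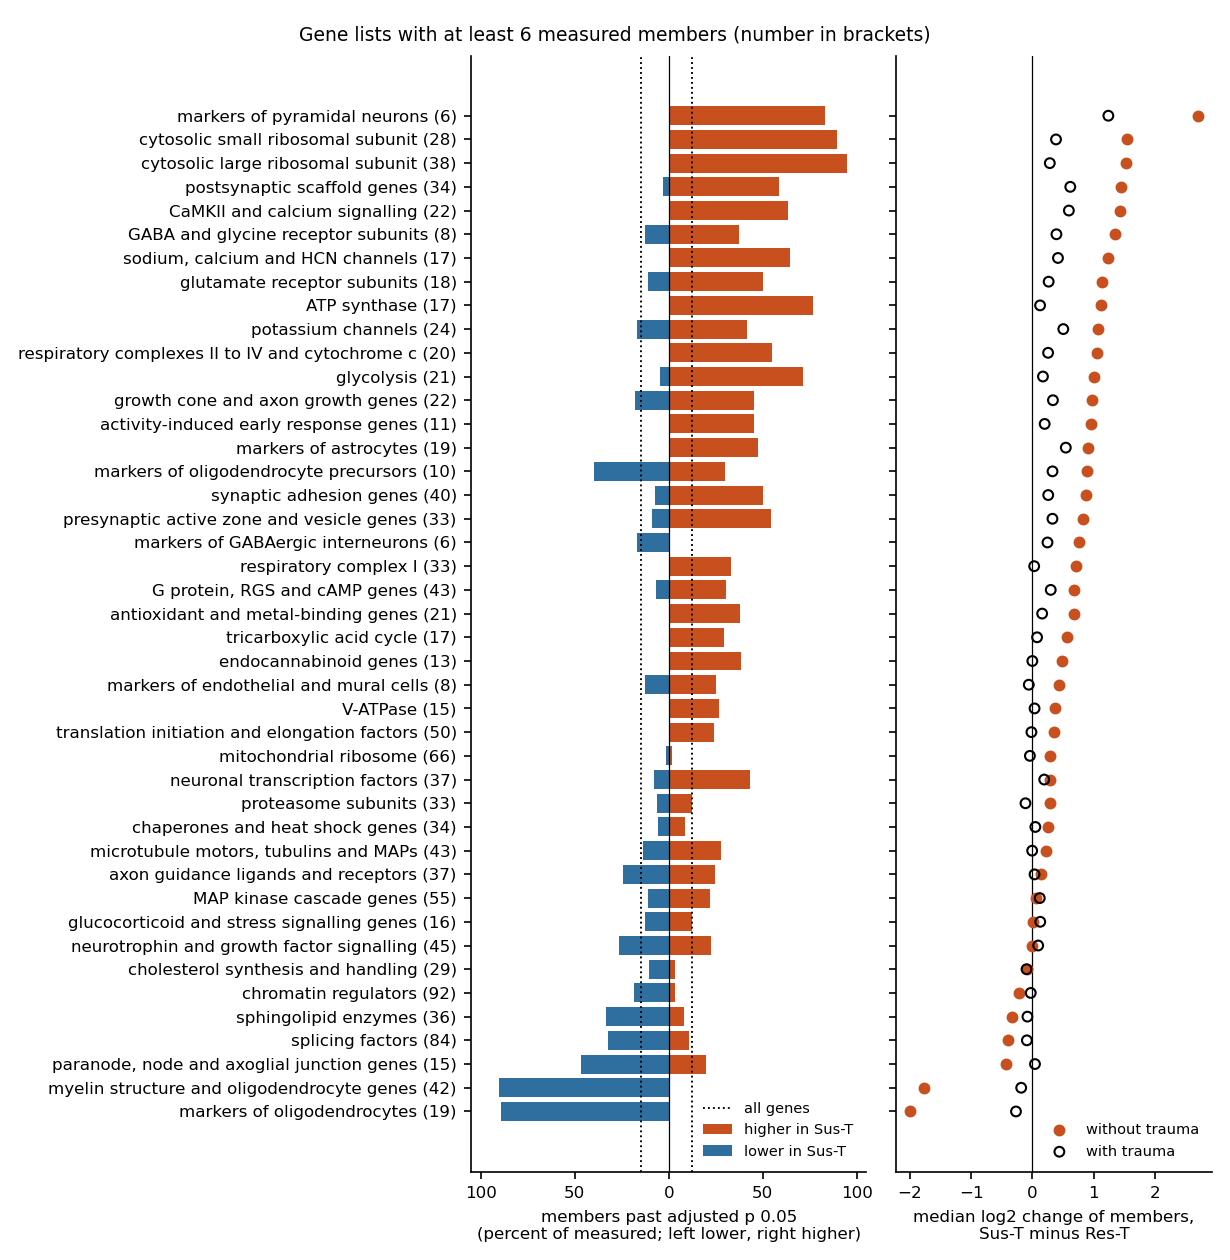
Gene lists with at least 6 measured members. Left: percent of members past the threshold without trauma, higher in Sus-T to the right and lower to the left, with dotted lines at the shares of all genes (12.4% and 15%); right: median log2 change, Sus-T minus Res-T, without trauma (filled) and with trauma (open). The cytosolic ribosomal lists reach 36 of 38 and 25 of 28 members higher, and the myelin list 38 of 42 lower, while the mitochondrial ribosome has 1 in each direction.

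Genes of the cytosolic ribosome were higher in Sus-T, while 2 of 66 genes of the mitochondrial ribosome passed. In the large ribosomal subunit 36 of 38 measured genes rose and none fell, and in the small subunit 25 of 28 rose and none fell, with median log2 changes of 1.52 and 1.55. Together they made up 1.31% and 1.43% of the Sus-T libraries and 0.485%, 0.519% and 0.457% of the Res-T libraries. Rpl38 had 614.9 and 777.6 in Sus-T and 171.1, 152.2 and 130.4 in Res-T (4.58-fold, adjusted p = 0.000189). It codes for a structural protein of the ribosome, and many such genes have processed pseudogenes whose reads a quantifier may share with them. Among 66 mitochondrial ribosomal genes 1 rose, Mrpl18 (1.96-fold), and 1 fell, Mrps9 (2.10-fold lower), and the median was 0.29. Both calls were lost without Sus-T replicate 1 or 3, that of Mrpl18 also without Res-T replicate 1 or 2 or with GC and length curves removed, and that of Mrps9 without Res-T replicate 3. Translation factors showed 12 rises and no fall among 50 (5 and 7 rises without Sus-T replicates 1 and 3), with Eif3f at 3.13-fold and the elongation factors Eef2 and Eef1a1 at 2.14-fold and 2.06-fold. With the oligodendrocyte covariate 1 large and 3 small subunit genes passed, and the medians were 2.55 and 2.67.

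Promoters of leading genes are printed because many ribosomal genes moved together and could share letters near their start. RefSeq sequences on GRCm38.p6 were matched by symbol for 7716 genes, and the 250 bases before each start were searched on both strands for 5 short motifs. The ETS core CCGGAAG, a binding site type of ETS-family factors, was in 17 of 47 ribosomal promoters (36.2%) and in 14.1% of all promoters, but in 11.2% of the promoters of genes that rose. GC boxes (GGGCGG) were in 62.6% of the promoters of rising genes and 58.3% of those of falling genes, against 60.9% of all, and CCAAT in 30.1% and 35.5%, against 36.9%. TATAAA was in 6.67% and 6.76%, against 6.08%, and the E-box CACGTG in 6.05% and 8.93%, against 8.5%. A match describes letters and not a bound site. The sequences run 5′ to 3′ on the strand of the gene and end at the base before its start. Capitals mark the ETS core in Rpl37 (chr15:5116363-5116612, plus strand) and Rps7 (chr12:28635954-28636203, minus strand), GC boxes in Basp1 (chr15:25413765-25414014, minus strand) and CCAAT in Gjc3 (chr5:137963099-137963348, minus strand).
Rpl37: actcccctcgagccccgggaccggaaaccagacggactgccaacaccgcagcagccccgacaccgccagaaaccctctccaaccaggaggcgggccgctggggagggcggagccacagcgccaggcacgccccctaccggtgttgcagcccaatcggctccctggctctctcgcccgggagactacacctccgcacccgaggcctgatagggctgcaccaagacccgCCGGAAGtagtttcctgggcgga
Rps7: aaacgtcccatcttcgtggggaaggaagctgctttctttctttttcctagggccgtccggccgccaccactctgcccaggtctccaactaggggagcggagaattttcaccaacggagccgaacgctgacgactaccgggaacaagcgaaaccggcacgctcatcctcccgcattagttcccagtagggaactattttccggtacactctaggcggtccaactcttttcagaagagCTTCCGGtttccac
Basp1: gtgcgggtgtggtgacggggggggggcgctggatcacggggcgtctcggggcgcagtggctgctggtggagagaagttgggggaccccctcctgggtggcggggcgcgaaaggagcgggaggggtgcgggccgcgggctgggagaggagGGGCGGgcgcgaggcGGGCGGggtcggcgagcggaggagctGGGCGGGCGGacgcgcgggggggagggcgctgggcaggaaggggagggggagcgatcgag
Gjc3: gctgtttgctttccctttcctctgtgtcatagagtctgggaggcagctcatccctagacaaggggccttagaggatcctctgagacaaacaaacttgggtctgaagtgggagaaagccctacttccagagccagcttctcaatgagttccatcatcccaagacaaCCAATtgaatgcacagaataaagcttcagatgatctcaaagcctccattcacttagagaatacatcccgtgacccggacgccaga
Rpl37 rose 4.10-fold and Rps7 3.42-fold, each with 1 match within 23 bases of the start on one strand or the other, while Basp1 held 4 overlapping or separate GC boxes in a promoter of 78.8% GC. The median promoter GC was 66.4% in postsynaptic scaffold genes, 57.6% in ribosomal genes and 52.4% in oligodendrocyte markers, against 60.4% in all genes.

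Genes of energy metabolism that passed were nearly all higher in Sus-T. In respiratory complex I 11 of 33 rose, in complexes II to IV with cytochrome c 11 of 20, and in ATP synthase 13 of 17, and none fell in any of these. Without Sus-T replicate 1 these rises numbered 6, 5 and 9, and without replicate 3 they numbered 9, 8 and 7. Ndufv2, a subunit of the electron input module of complex I, had 339.3 and 279.7 in Sus-T and 157, 110.2 and 127.6 in Res-T (2.36-fold, adjusted p = 0.003). Cox6a1, a subunit of cytochrome oxidase, rose 3.36-fold, and Atpif1, which inhibits ATP synthase when it runs backwards, had 201.8 and 203.4 in Sus-T and 42.8, 34.1 and 35.9 in Res-T (5.30-fold, adjusted p = 0.000183). Both measured transcripts of the mitochondrial genome were high in Sus-T. mt-Co3, a core subunit of cytochrome oxidase, had 70960 and 54500 in Sus-T and 7443, 11420 and 15810 in Res-T (5.63-fold, adjusted p = 0.00144), and mt-Nd6 rose 4.35-fold. Glycolysis genes showed 15 rises and 1 fall among 21 (8 rises without either Sus-T library), led by Eno2, the neuronal enolase, at 4.65-fold (177.0 and 162.9 in Sus-T, 34.6, 39.9 and 33.1 in Res-T). In the tricarboxylic acid cycle 5 of 17 rose and in the V-ATPase, the proton pump of vesicles and lysosomes, 4 of 15. Without replicate 1 or replicate 3 of Sus-T fewer of both rose, and the V-ATPase share was no higher than that of all genes. Among 21 antioxidant genes 8 rose and none fell (5 and 3 rises without Sus-T replicates 1 and 3), with Gpx1, a glutathione peroxidase, at 3.84-fold. With the oligodendrocyte covariate 1 ATP synthase gene passed, which was not Atpif1, and the medians of the 3 respiratory lists were 1.49, 2.11 and 2.35.

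Few genes of protein quality control passed. Of 33 proteasome genes 4 rose and 2 fell (2 and 1 without Sus-T replicate 1), with Psme3, a proteasome activator, at 2.31-fold higher and Psmc2, an ATPase of the proteasome cap, at 2.36-fold lower (181.7 and 175.5 in Sus-T, 469.6, 368.1 and 435.4 in Res-T). Of 34 chaperone genes 3 rose and 2 fell, with 1 and 0 rises without Sus-T replicates 1 and 3. Both shares lie below the 27.4% of all genes called.

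Genes of myelin and oligodendrocytes were lower in Sus-T, with 38 of 42 down, none up and a median log2 change of -1.77. Opalin, a membrane protein of mature oligodendrocytes, had 218.4 and 347.7 in Sus-T and 1726, 1332 and 1344 in Res-T (5.27-fold lower). The lower of the Sus-T libraries was replicate 1. Aspa, which frees acetate from N-acetylaspartate for myelin lipids, was 5.81-fold lower, and Gjc3, a gap junction protein of oligodendrocytes, 4.19-fold lower. Ccp110, a centriole protein, had the smallest p among the falls described here, with 972.7 and 1457 in Sus-T and 6086, 5422 and 6031 in Res-T (4.90-fold lower, log2 -2.29 ± 0.20 SE, adjusted p = 4.92e-06).

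The genes for the basic proteins of compact myelin departed from this size. Mbp had 17760 and 21500 in Sus-T and 30050, 36590 and 23940 in Res-T (log2 -0.61 ± 0.28 SE, adjusted p = 0.121). Mobp had 9025 and 9045 in Sus-T and 13280, 19050 and 11500 in Res-T (log2 -0.66 ± 0.30 SE, adjusted p = 0.111). Neither passed, although in both genes the groups did not overlap, and both passed when only the 5 libraries compared or all but Sus-T with trauma replicate 1 were used, Mbp also under quantile normalization. Mbp and Mobp messages are known to be carried into the processes of the oligodendrocyte. Their difference from the other genes of the list was not tested.

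Lineage genes of oligodendrocytes went both ways. Enpp6, a phosphodiesterase of newly formed oligodendrocytes, had 93.9 and 231.1 in Sus-T and 957.6, 1575 and 918 in Res-T (7.51-fold lower, log2 -2.91 ± 0.34 SE, adjusted p = 2.46e-05). Sox10, a transcription factor of the whole lineage, had 222 and 556.2 in Sus-T and 1716, 1514 and 1279 in Res-T (4.24-fold lower). Pdgfra, the growth factor receptor of precursors, was higher, with 744.2 and 1685 in Sus-T and 367.2, 387.9 and 225.2 in Res-T (3.52-fold, adjusted p = 0.00169), a call lost without Sus-T replicate 3. Of 10 listed precursor markers 3 rose and 4 fell. The rises included Cacng4 (3.27-fold) and Lhfpl3 (4.97-fold, a call lost without Sus-T replicate 3 or Res-T replicate 1). The falls included the lineage factors Olig1 (1.97-fold lower) and Olig2 (2.25-fold lower), calls lost without Sus-T replicate 1, that of Olig2 also without Res-T replicate 2. Without Sus-T replicate 1 the list had 4 rises and 2 falls, and without replicate 3 it had 1 rise and 4 falls.

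Genes of the axon-glia junction also divided. Nfasc, whose forms stand on both sides of the junction, had 2638 and 4063 in Sus-T and 12290, 15850 and 10690 in Res-T (3.90-fold lower, adjusted p = 5.97e-05). Cntn2, which clusters potassium channels beside the node, was 5.29-fold lower and Jam3, a junctional adhesion molecule, 3.52-fold lower. Cntnap1, the axonal partner at the paranode, was higher, at 118.5 and 95 in Sus-T and 21.7, 23.0 and 20.7 in Res-T (4.71-fold, adjusted p = 0.00294). Of the 15 genes of this list 3 rose and 7 fell. Sphingolipid enzymes, which make myelin lipids among others, showed 3 rises and 12 falls among 36 (1 rise without either Sus-T library): Elovl7, which lengthens fatty acids, had 175.3 and 273.1 in Sus-T and 949.9, 957.2 and 1130 in Res-T (4.60-fold lower), and Cers6, a ceramide synthase for shorter chains, rose 7.16-fold. Cholesterol genes, another supply line of myelin, had 1 rise and 3 falls among 29, below the 12.4% and 15% of all genes.

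Markers of other cell types went in both directions. Of 19 astrocyte markers 9 rose and none fell, and together they made up 1.28% and 2.37% of the Sus-T libraries and 0.545%, 0.435% and 0.644% of the Res-T libraries. Aldoc, the aldolase of astrocytes, had 1596 and 3361 in Sus-T and 610.3, 547.3 and 605.3 in Res-T (3.94-fold, adjusted p = 0.00145). Apoe, the lipid carrier made by astrocytes and microglia, was 2.43-fold higher (adjusted p = 0.00421), a call lost without Sus-T replicate 3 and with GC and length curves removed. Without Sus-T replicate 3 there were 3 astrocyte rises. Of 4 microglia markers 3 rose, with 0 and 1 rises without Sus-T replicates 1 and 3. Among 8 endothelial and mural markers 2 rose and 1 fell, and Col1a2, a collagen of fibroblast-like cells, had 176.4 and 78.8 in Sus-T and 14, 18.1 and 12.1 in Res-T (7.66-fold, adjusted p = 0.00152). Kdr, a growth factor receptor of endothelial cells, was lower, with 4.38 and 20.2 in Sus-T and 82.8, 62.8 and 86.9 in Res-T (7.27-fold lower, adjusted p = 0.00368), a call lost without Sus-T replicate 1, where the list had 1 rise and no fall. Of 6 interneuron markers none rose and 1 fell (none without either Sus-T library), and none of 3 striatal and central amygdala markers passed. The part of these cells in the neuronal changes was not tested.

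Splicing factors showed 9 rises and 27 falls among 84, with a median log2 change of -0.39, so 32.1% fell, against 15% of all genes. Chromatin regulators showed 3 rises and 17 falls among 92, with a median of -0.22, so 18.5% fell, near the share of all genes. Ddx17, an RNA helicase, had 1586 and 1485 in Sus-T and 4032, 3368 and 3833 in Res-T (2.43-fold lower, adjusted p = 9.08e-05). The splicing regulators that rose included several known from neurons. Rbfox2 had 424.7 and 482.9 in Sus-T and 78.2, 107.4 and 90.0 in Res-T (4.93-fold, adjusted p = 4.09e-05), Nova2 rose 4.05-fold and Celf5 9.01-fold. Chd7, a chromatin remodeller, was 2.76-fold lower (505.6 and 450.5 in Sus-T, 1387, 1289 and 1288 in Res-T), and Kat2b, a histone acetyltransferase, 4.74-fold lower. Without replicate 1 of Sus-T 20.2% of splicing factors and 10.9% of chromatin regulators fell, against 7.83% of all genes. Without replicate 3 it was 15.5% and 9.78%, against 11.9%. Of 4 measured Y-linked genes 3 were lower in Sus-T, with Ddx3y, an RNA helicase, at 291.4 and 415.6 in Sus-T and 625, 677.1 and 853.5 in Res-T (2.04-fold lower, adjusted p = 0.0023), a call lost without Sus-T replicate 1, where none of the 4 passed.

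**Figure D4:**
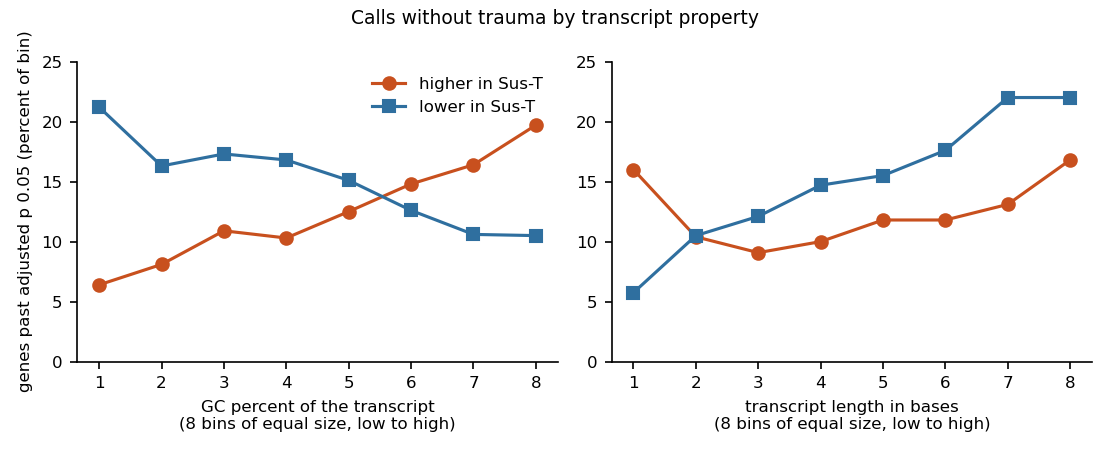
Percent of genes past the threshold (vertical axis) in 8 equal bins of transcript GC content (left) and transcript length (right), higher in Sus-T as circles and lower in Sus-T as squares. Rises grow from 6.4% to 19.7% and falls shrink from 21.2% to 10.5% between the lowest and highest GC bins, and falls grow from 5.75% to 22% with length.

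Calls also followed the make-up of the transcript. In the bin of lowest GC content (30.96% to 41.5%) 6.4% of genes rose and 21.2% fell, with a median log2 change of -0.24, and in the bin of highest GC (56.59% to 69.14%) 19.7% rose and 10.5% fell, with a median of 0.27. Among the shortest transcripts, up to 1791 bases, 16% rose and 5.75% fell. Among the longest, from 6886 bases, 16.8% rose and 22% fell. With trauma the medians of the same bins lay between -0.03 and 0.07. When smooth curves for GC content and length were removed from each library, an alternative added after the values were seen, 2738 genes passed, of which 880 (32.1%) were higher and 1858 lower, while 22 of 28 small and 32 of 38 large ribosomal genes rose and 38 of 42 myelin genes fell. The median log2 change of 32 of the 50 lists moved by less than 1 SD between libraries of a group. In other lists the counts differed more, and with the curves removed 8.92% of all genes rose and 18.8% fell. Rises numbered 3 of 21 (14.3%) in antioxidant genes and 8 of 50 (16%) in translation factors. They numbered 1 of 34 (2.94%) in chaperones and 1 of 4 in microglia markers. Chromatin regulators then had no rise and 26 falls, and the mitochondrial ribosome no rise and 3 falls.

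The same comparison with trauma, in 4 Sus-T and 4 Res-T libraries that share none with the first, called no gene in limma (1142 genes, 11.6%, had an unadjusted p under 0.05), and 10 with the replicate number as a block. Genes that rose without trauma nevertheless had the same sign with trauma in 1089 of 1223 cases (89%), and those that fell in 1156 of 1483 (78%), where 59.9% of the genes not called did. Their median log2 change was 0.38 with trauma against 1.40 without for the rises, and -0.18 against -1.28 for the falls. Of the called genes 631 had an unadjusted p under 0.05 with trauma in the same direction, and 6 in the opposite one. Basp1 was a close case: it had 351.7, 305.3, 356.6 and 349 in Sus-T and 199.9, 192.2, 233 and 151.9 in Res-T with trauma (log2 0.82 ± 0.18 SE, adjusted p = 0.0871), with no overlap. Camk2a had 3974, 1138, 2306 and 762.3 in Sus-T and 421.5, 835, 238 and 435.7 in Res-T with trauma (adjusted p = 0.118), with overlap. Mef2c had 385.6, 370.4, 491.3 and 553.6 in Sus-T and 466.1, 363.4, 358.7 and 298.3 in Res-T with trauma, which did not pass (log2 0.27 ± 0.24 SE).

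**Figure D5:**
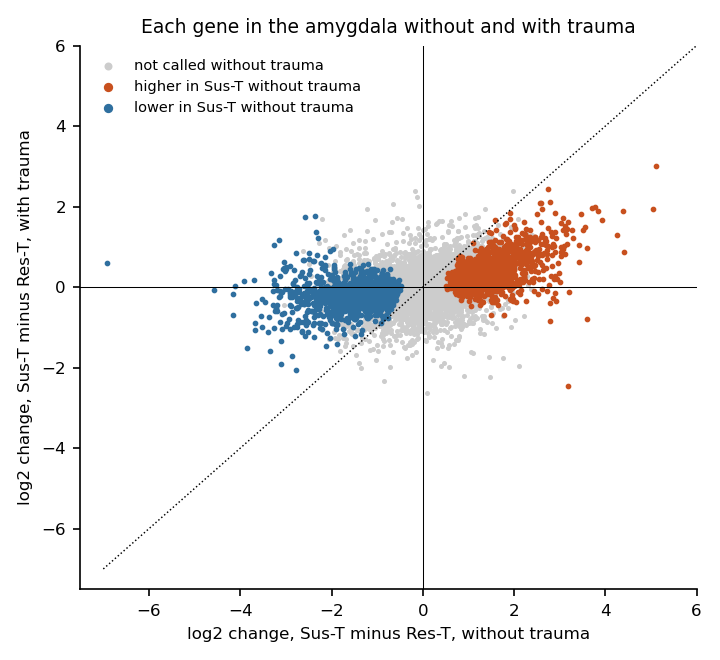
Log2 change, Sus-T minus Res-T, of each of 9872 genes without trauma (horizontal axis) and with trauma (vertical axis); colours mark genes called without trauma, and the dotted line marks equal changes. Rises have a median of 1.40 without and 0.38 with trauma, falls -1.28 and -0.18.

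The difference between the comparisons, without minus with trauma, was itself tested and passed in 665 genes (6.74%), 195 with a more positive and 470 with a more negative change without trauma. All but 4 of them, 661, were also called without trauma, 194 rises and 467 falls, and 27 of these rises and 134 of these falls had the opposite sign with trauma. Without Sus-T without trauma replicate 1 the count was 59. The libraries with trauma lay between the groups: their mean was above Res-T and below Sus-T without trauma in 1196 of the 1223 rises (97.8%), and between them the other way in 1439 of the 1483 falls (97%), against 50.1% of the genes not called. Sus-T without trauma stood a median of 0.50 above the libraries with trauma in the rises, which stood 0.87 above Res-T without trauma. Since the genes were chosen for being far apart without trauma, these distances are a description. In the ribosomal list it was Res-T without trauma that lay outside the range of the rest, at 0.457% to 0.519%, against 1.31% and 1.43% in Sus-T without trauma, 1.08% to 1.54% in Sus-T with trauma and 0.85% to 1.33% in Res-T with trauma. By the summed share of oligodendrocyte markers it was Sus-T without trauma, at 2.1% and 3.14%, against 4.36% to 7.94% in the other groups. By their mean log2 level both groups without trauma lay outside the libraries with trauma, which spanned 11.72 to 12.46. Sus-T without trauma stood at 10.42 and 11.2, and Res-T without trauma at 12.71, 12.89 and 12.56.

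In the medial prefrontal cortex, Sus-T without trauma (replicates 1 and 3) against Res-T without trauma (4 libraries) called no gene of 6080 in limma, and 630 (10.4%) had an unadjusted p under 0.05. Of the amygdala rises measured there, 510 of 570 (89.5%) had the same sign, and of the falls 676 of 792 (85.4%), against 63.9% of the genes not called. Their median log2 changes in the cortex were 0.48 and -0.34. Whether the cortical and amygdala libraries came from the same mice is not stated.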

How the data were processed

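Sorted amygdala cells of 5 Sus-T and Res-T libraries without trauma were compared. Per the submitters' processing notes, bcl2fastq 2.20 converted the base calls and Salmon 1.2 gave abundances, with GRCm38.p6 as the build. The deposited values are a signal in arbitrary units that the authors normalized by a method not given in the sources used here, so read depth is unknown and no count test was run. The deposited signal values had no zeros, and values of a library held in several tables were identical (207376 compared, 0 differing). Taken as log2(value - 1) and centred by gene, the 13 amygdala libraries spanned 11 of 12 possible dimensions. The Res-T libraries without trauma had almost no weight in the missing one, so both groups may have been processed differently. The dimensions of the log2(value + 1) values used in the tests were not examined. An adjustment by the authors that removes a dimension would make the spread within groups, and so the p-values, too small.

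Values were analysed as log2(value + 1), so fold changes of low genes are understated. Means of at least 1 were required, which removed no gene. A linear model with 4 groups was fitted to the 13 libraries with limma 3.58.1 in R 4.3.3, with trend and robust moderation and 9 residual degrees of freedom. P-values were adjusted over 9872 genes by Benjamini and Hochberg, with a threshold of 0.05; the fit was tested on simulated data. Symbols came from GENCODE M21 by stable identifier (9871 matched). Beyond the 50 gene lists, genes named are those with the smallest p or the largest change among genes past the threshold, up to 4 per list and direction, and preselected ones; Some genes are not reported here; Mbp and Mobp fall outside that rule and were chosen after their values were seen. Mef2c, Camk2a, Basp1 and other members and lists were chosen with earlier results of these data known. Alternatives were other normalizations, pseudocounts and filters, the groups alone, a replicate block, an oligodendrocyte covariate, GC and length curves, and leaving out each library.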

Additional observations from a re-analysis of the deposited data

Results flagged for a closer look

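The difference between the amygdala comparisons without and with trauma passed in 665 genes (6.74%), 661 of which were among the 2706 called without trauma. It passed in 62 of the 95 genes named in the text, 91 of which were called without trauma. Named genes were mostly picked by their change without trauma, which is 1 part of this difference, so a high share follows from that choice. Among the fits that left out 1 library, fewest genes passed without Sus-T without trauma replicate 1. The genes below were singled out because the Sus-T minus Res-T change differed between the conditions by the test of that difference in limma. The values are log2 changes without trauma minus with trauma. They also rest on the Res-T libraries without trauma, which may have been handled differently before deposit. In Camk2a the Sus-T means were 2311 without and 2045 with trauma, and the Res-T means were 67.0 and 482.6. In Mef2c the means were 938 and 450.2 in Sus-T, and 135.1 and 371.6 in Res-T. A more positive change without trauma was found in genes of the synapse and of neuronal signalling. It was 3.1 in Camk2a, 2.07 in Ncs1, 1.95 in Psd, 2.62 in Shank2 and 1.72 in Dlg4. Among presynaptic and G protein genes it was 2.27 in Bsn, 1.47 in Snap91, 2.7 in Gng3 and 1.34 in Gnas. Growth, adhesion and guidance genes gave 2.29 in Basp1, 2.22 in Evl, 1.83 in Nav3, 1.06 in Adgrl1, 1.88 in Plxna4, 1.27 in Tubb5 and 2.02 in Tuba4a. Regulators gave 2.63 in Mef2c, 1.19 in Camta2, 1.26 in Rbfox2, 1.31 in Nova2, 1.66 in Fgf12, 1.76 in Dagla, 2.96 in Dok6 and 1.73 in Fbxl16.

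Genes of protein synthesis and metabolism also had a more positive change without trauma, with 1.51 in Rpl38, 1.35 in Rps7, 1.37 in Eif3f, 1.46 in Ndufv2, 2.28 in Atpif1, 1.95 in Eno2 and 1.84 in Gpx1. Cers6 had 2.31 and Col1a2 had 2.72.

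A more negative change without trauma was found in oligodendrocyte and junction genes, with -1.99 in Opalin, -2.15 in Aspa, -1.98 in Gjc3, -1.73 in Sox10 and -2.66 in Enpp6. Junction and lipid genes gave -1.87 in Nfasc, -2.18 in Cntn2, -1.71 in Jam3 and -2.05 in Elovl7. Receptors and signalling genes gave -2.11 in Unc5c, -2.23 in Plxnb3, -1.68 in Fgfr2, -1.83 in Erbb3, -1.39 in Gria4, -1.53 in Rgs3, -1.36 in Pde4b and -4.05 in Sgk2. The remaining ones were -2.08 in Ccp110, -1.57 in Kif13b, -1.57 in Map7, -1.26 in Stmn4, -1.6 in Ptprd, -0.91 in Syt11, -1.02 in Zeb2, -0.96 in Ddx17, -1.21 in Chd7, -1.93 in Kat2b, -0.97 in Ddx3y and -4.51 in Sec14l5.

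Among 14 groups of 4 libraries with trauma looked at for a library far from the rest, Basp1 in Sus-T with trauma had 1, at 305, below the other 3 at 349 to 356.6. About 1 in 20 such groups shows this by chance.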

How the results depend on the processing

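Each of the 2706 called genes kept its direction under quantile normalization, median-of-ratios scaling, both other pseudocounts, moderation without trend, the compared groups alone, the replicate block and each library left out. With 1 Sus-T library left out, the other is assumed to vary like the remaining groups. Leaving out 1 library gave 1565 to 3190 calls without trauma, 77.4% to 90% of called genes with the same sign with trauma (83% in the full set), and 59 to 810 genes whose difference between conditions passed. The oligodendrocyte covariate gave 44 calls, 97.7% and 2 genes, and reversed the log2 change of Syt11 (0.02), Mbp (0.19), Sox10 (0.73), Kdr (2.01), Olig1 (0.43), Olig2 (0.31), Cntn2 (0.36), Plxnb3 (0.22), Kat2b (0.55), Sec14l5 (1.34) and Sgk2 (0.4), none of which passed there; the cause was not tested. The share of 83% was 85.2% with a mean of at least 100, 80.4% in the compared groups alone, 84.6% with the replicate block and 80.7% with GC and length curves removed, a setting chosen after seeing the data that shifted the median log2 change of all genes to -0.17, against -0.03 without it. Moderation without trend gave 366 genes for the difference between conditions, which has no value in the compared groups alone. Replicate numbers 1 and 3 are shared by the Sus-T and Res-T groups, and the deviations of same-numbered libraries had r = -0.06 and -0.039. With 2 Sus-T libraries their deviations from the group mean mirror each other. These correlations therefore cannot decide whether the number pairs libraries. With the replicate block 2505 genes passed without trauma and 463 for the difference. With trauma no gene passed, against 10 with the replicate block and 12 without Res-T with trauma replicate 2, the most under any setting tried. Depth limits cannot be given for these values, since no counts were recovered.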
